A study of Mus musculus with 8 samples.

Results

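The levels of 9 Ras-family GTPase mRNAs (Hras, Nras, Mras, Rras, Rras2, Rit1, Rap1a, Rap1b and Rap2b) were followed in mouse embryonic stem cells after transcription had been blocked. The list was chosen by family and with earlier values of the same arrays in view, namely log2 signals over the 3 groups, in which Mras and Rit1 differed between 4OHT and vehicle. Their differences are therefore given as descriptions, with standard errors and without p-values. All probes whose accession names one of the genes were taken, which gave 14 of the 55681 probes on the array. One Hras probe (A_55_P1979536) was not well above background on any array and was not tested. The remaining 13 probes passed the filter on dim signal, so that each of the 9 genes is among the 28493 genes and unnamed transcripts tested.

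Ras-family GTPases are membrane switches that signal when bound to GTP and stop when the GTP is hydrolysed. Exchange factors load them with GTP, GTPase activating proteins switch them off, and most are held at membranes by lipid groups on their C-terminal end. Active Ras binds RAF kinases, which start the cascade that ends in ERK, and in embryonic stem cells FGF signalling through this cascade favours exit from the pluripotent state.

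All cells were mouse embryonic stem cells in ESC medium, which contained the self-renewal cytokine LIF and the FGF receptor inhibitor PD173074 at 250 nM. The untreated group (0 h) has 3 arrays, although actinomycin D appears, abbreviated, in their sample titles. The vehicle group has 2 arrays of cells given 5 µM actinomycin D, a transcription inhibitor, and after 30 min ethanol for a further 4 h. The 4OHT group has 3 arrays of cells given the same actinomycin D and then 250 nM 4OHT, a ligand of the modified oestrogen receptor domains used to switch on fusion proteins. The labels name neither the cell line or clone nor a protein that 4OHT would switch on. The design text calls the arrays of a group biological replicates. Every array was hybridised with labelled RNA made from 100 ng of total RNA, so fewer copies per cell and a changed amount of total RNA per cell cannot be told apart.

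Signals are log2 values relative to the 75th percentile of each array, and a difference is therefore a change relative to that percentile. The percentile itself was 333 to 457 intensity units on untreated, 166 to 205 on vehicle and 180 to 209 on 4OHT arrays. Agilent E1A spike-in probes gave a second scale, on which the log2 percentile of the 3 untreated arrays was -3.49 ± 0.09 (SD). It was -4.77 ± 0.09 (SD) on the 2 vehicle arrays and -5.08 ± 0.25 (SD) on the 3 arrays with 4OHT. From vehicle to 4OHT, the E1A probes taken one by one shifted by -0.07 to 0.55. The shifts were -0.09 to 0.32 from untreated to vehicle and 0.10 to 0.79 from untreated to 4OHT. This spread limits the accuracy of that scale, and an error common to all E1A probes would not show in it. The untreated and vehicle arrays lay on 1 slide and the 4OHT arrays on the other, so 4OHT and slide cannot be told apart. All 8 stem cell markers (Pou5f1, Sox2, Nanog, Zfp42, Esrrb, Dppa5a, Tdgf1 and Utf1) were well above background on every array. Their summed log2 level, which the brightest markers carry, was 9.60 to 9.83 untreated, 10.26 to 10.28 with vehicle and 10.04 to 10.21 with 4OHT. Single markers parted: against untreated, vehicle had 4 of the 8 called higher and 2 lower and 4OHT had 4 higher and 4 lower, with Sox2 at -3.54 and -4.06 and Zfp42 at -1.06 and -0.92. Over all features tested, 41.5% were called higher and 15.9% lower with vehicle, and 41.0% and 18.7% with 4OHT. The summed primitive endoderm marker level was -0.49 to -0.09 untreated, with 7 of 7 markers above background. It was -1.50 to -1.28 with vehicle and -1.79 to -1.25 with 4OHT, with 2 of 7 above background in both. All 7 were dim, with untreated means between -4.47 and -1.90, and with vehicle 5 were called lower and Dab2 higher (1.18). Over all spots, 61.0 to 75.7% were above background untreated, 55.6 to 60.0% with vehicle and 53.0 to 57.4% with 4OHT. Of 7 trophoblast markers 5 were tested, with summed levels of 2.50 to 3.08, 1.32 to 1.90 and 1.45 to 1.89, and Cdx2 and Elf5 were not. Of 8 feeder fibroblast markers 4 were tested, with summed levels of 1.29 to 1.86, 1.62 to 1.80 and 1.92 to 2.08, while Col3a1, Postn, Lum and Dcn were not. Thy1 carried this sum, with means of 1.33 untreated, 1.52 with vehicle and 1.82 with 4OHT. With vehicle Col1a2 was called higher (0.80) and Twist1 lower (-2.23). The part of these shifts in the Ras-family values was not tested.

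Rit1 is a Ras-related GTPase that lacks the lipid anchor site of classical Ras proteins and signals to ERK and p38 kinases. Like Rap2b, it had its own lowest levels in the 4OHT group. Its single probe (A_51_P236175) read 2.49, 2.27 and 2.52 on the untreated arrays and 1.75 and 1.65 on the vehicle arrays. On the 4OHT arrays it read 0.038, 0.013 and 0.0061. The 3 groups did not overlap, and the 4OHT arrays lay within a narrow band (SD 0.017). Rit1 was lower with vehicle than untreated by -0.72 ± 0.11 and lower with 4OHT than with vehicle by -1.68 ± 0.11, a 3.21-fold difference. In the order of all 28493 differences between 4OHT and vehicle, Rit1 was the 186th from the lowest. Relative to spike-in probes these differences were -2.00 ± 0.23 and -1.99 ± 0.23, so that 25.2% of the vehicle signal and 6.30% of the untreated signal was left with 4OHT. The difference between 4OHT and vehicle lay at -1.99 to -1.38 over 21 settings, which include the main fit and the 8 fits without 1 array. Over those 8 fits it lay between -1.73 and -1.63. For vehicle against untreated, scaling the arrays to their median gave -0.68, which was not called.

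**Figure D1:**
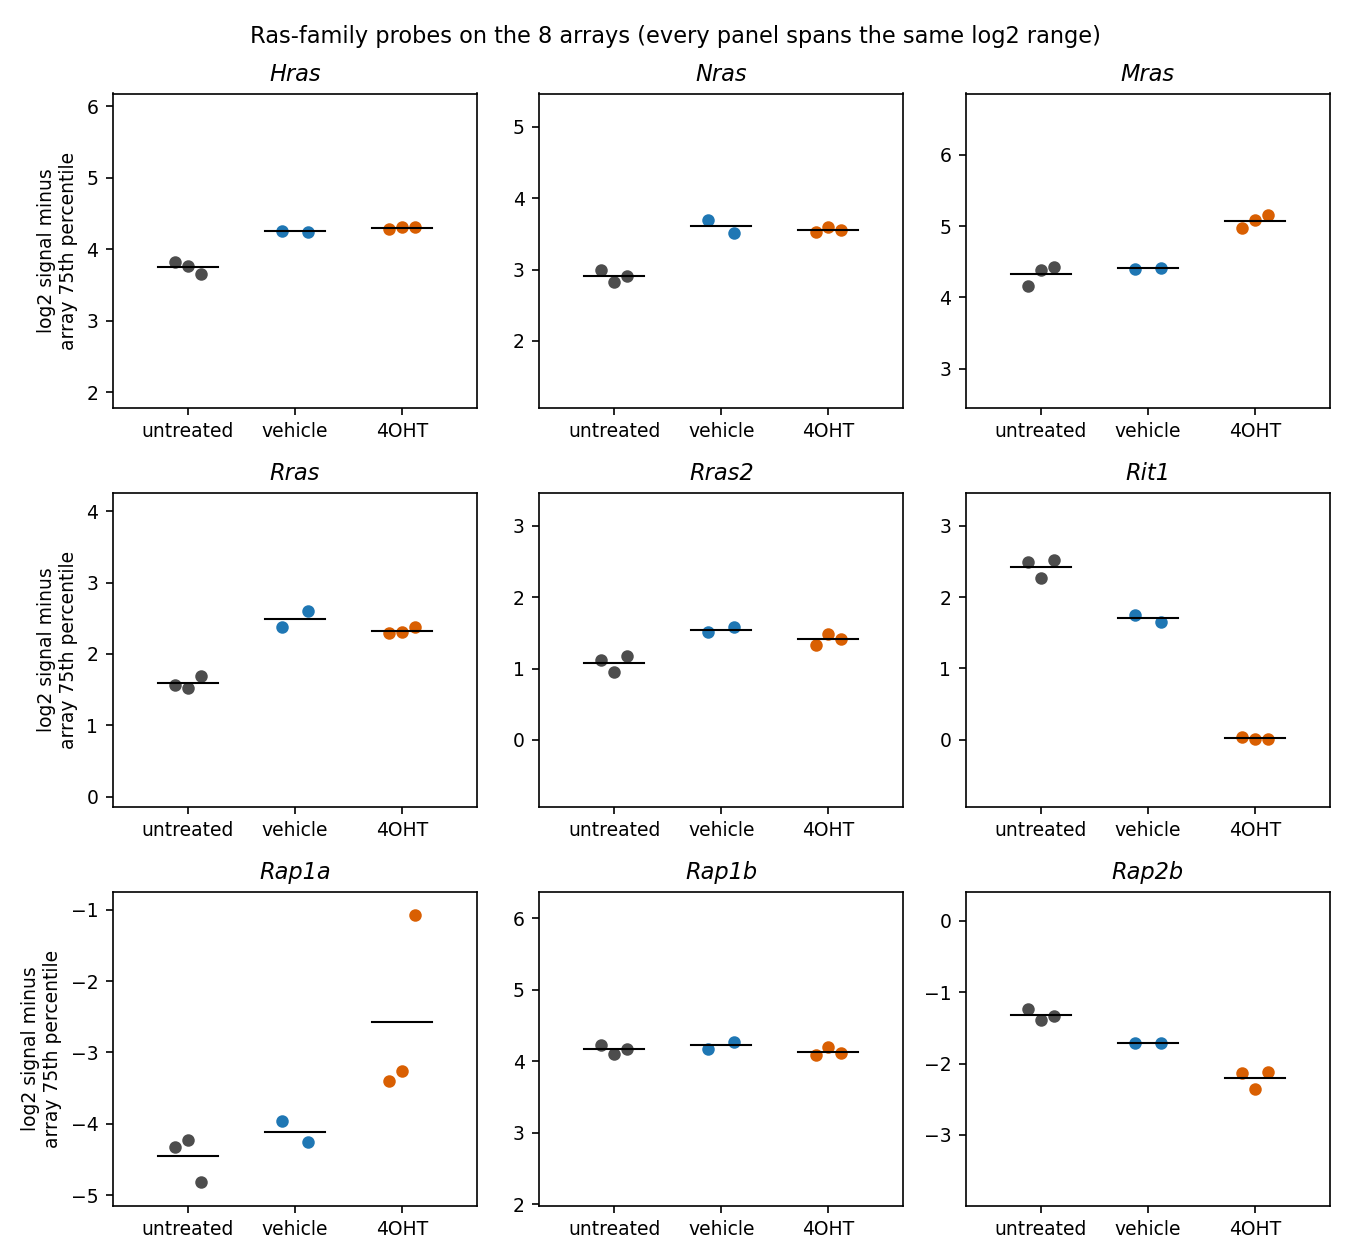
Log2 signal of each Ras-family gene (its probe with the highest mean) relative to the array's 75th percentile, by group; points are arrays, black lines are group means, and every panel spans the same range of log2 units. The 4OHT arrays sit lowest for Rit1 and Rap2b and highest for Mras, and 4OHT replicate 3 stands apart for Rap1a.

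Mras, whose protein joins SHOC2 and protein phosphatase 1 in a complex that removes an inhibitory phosphate from RAF kinases, stood higher with 4OHT than with vehicle on its representing probe. That probe (A_55_P2060303) read 4.16, 4.39 and 4.43 untreated, 4.40 and 4.41 with vehicle, and 4.97, 5.08 and 5.15 with 4OHT. The untreated and vehicle arrays overlapped, and every 4OHT array lay above them. The difference was 0.66 ± 0.11 between 4OHT and vehicle, a 1.58-fold difference, and 0.08 ± 0.11 between vehicle and untreated. On the spike-in scale the difference between 4OHT and vehicle was 0.35 ± 0.21, and vehicle was at 43.7% and 4OHT at 55.8% of untreated. Vehicle against untreated was called lower with quantile normalization (-0.39), unscaled (-1.02) and spike-in-scaled (-1.19). It was called higher for the mean of the Mras probes (0.42).

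The other Mras probes put the difference elsewhere. Probe A_52_P203798 read -0.66, -0.54 and -0.31 untreated, 0.19 and 0.44 with vehicle, and 0.33, 0.53 and 0.48 with 4OHT. It stood apart between untreated and the rest (0.82 ± 0.14, vehicle minus untreated), while 4OHT and vehicle overlapped (0.13 ± 0.14, and -0.18 on the spike-in scale). Probe A_55_P2154322 read -2.52, -2.19 and -2.01 untreated, -2.05 and -1.70 with vehicle, and -1.64, -1.49 and -1.49 with 4OHT. Its differences were 0.36 ± 0.18 for vehicle minus untreated and 0.33 ± 0.18 for 4OHT minus vehicle. Averaged over its probes, Mras differed by 0.37 between 4OHT and vehicle and was not called. Over the 21 settings, that average among them, the Mras difference was 0.35 to 0.77 and passed the threshold in 5. Leaving out any array other than untreated replicate 1 left it short of the threshold, with a difference between 0.62 and 0.71. The 3 probes came closer together in 4OHT against untreated, at 0.74 ± 0.10, 0.95 ± 0.13 and 0.70 ± 0.16, and each was negative on the spike-in scale (-0.84, -0.63 and -0.89).

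**Figure D2:**
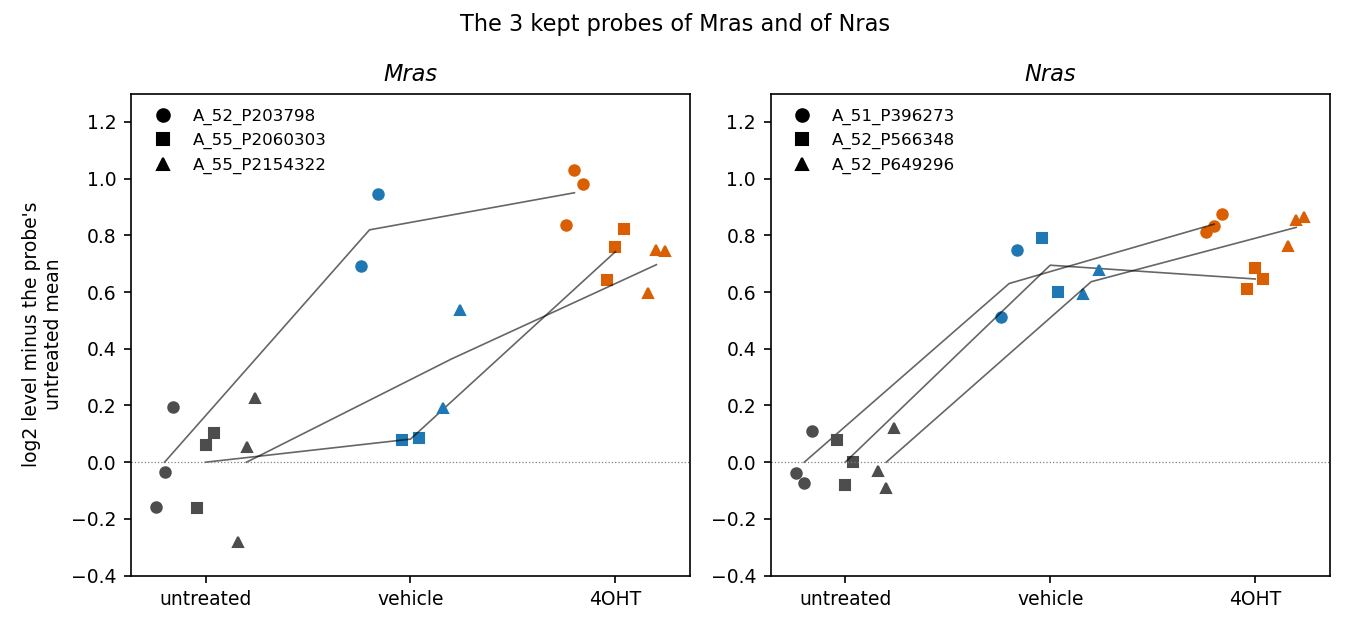
Log2 level of the 3 tested probes of Mras and of Nras minus each probe's untreated mean; points are arrays, marker shapes are probes and lines join group means. The Nras probes move together from untreated to vehicle, whereas the Mras probes separate in the vehicle group.

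The classical Ras genes Hras and Nras, which encode the prenylated and palmitoylated switches that activate RAF, were higher relative to the 75th percentile in both actinomycin D groups. Hras read 3.82, 3.77 and 3.65 untreated, 4.26 and 4.24 with vehicle, and 4.29, 4.31 and 4.31 with 4OHT. The difference was 0.50 ± 0.09 between vehicle and untreated and 0.05 ± 0.09 between 4OHT and vehicle. All untreated arrays lay below the others. This order turned without scaling (-0.59, vehicle minus untreated) and on the spike-in scale, where Hras was at 58.6% of untreated with vehicle and 49.1% with 4OHT. With quantile normalization Hras differed from untreated by 0.095 with vehicle and 0.16 with 4OHT and was called in neither.

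Nras (A_52_P566348) read 2.99, 2.83 and 2.91 untreated, 3.70 and 3.51 with vehicle, and 3.52, 3.59 and 3.55 with 4OHT. The vehicle and 4OHT arrays overlapped and the untreated arrays lay below both. Vehicle minus untreated was 0.69 ± 0.10 on this probe, 0.64 ± 0.10 on A_52_P649296 and 0.63 ± 0.11 on A_51_P396273. For 4OHT minus vehicle this probe gave -0.05 ± 0.10, whereas the other probes gave 0.19 ± 0.10 and 0.21 ± 0.11 with no overlap between the groups. With 2 and 3 arrays such a gap says little, since the Hras arrays did not overlap either at 0.05 ± 0.09. On the spike-in scale all 3 Nras probes were lower with vehicle than untreated, at 63.9 to 66.9% of the untreated signal, and unscaled the representing probe gave -0.40. With quantile normalization it gave 0.42.

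The R-Ras branch encodes GTPases best known for integrin-dependent adhesion (Rras) and for PI3-kinase signalling (Rras2). Rras read 1.56, 1.52 and 1.69 untreated, 2.38 and 2.60 with vehicle, and 2.29, 2.31 and 2.37 with 4OHT. The gap between vehicle and untreated, 0.90 ± 0.11, was the widest upward one among the 9 genes relative to the 75th percentile, while it was -0.38 ± 0.22 on the spike-in scale and -0.20 unscaled. Rras was slightly lower with 4OHT than with vehicle (-0.17 ± 0.11), without overlap between arrays and without a call. Rras2 read 1.12, 0.95 and 1.17 untreated, 1.51 and 1.58 with vehicle, and 1.34, 1.48 and 1.42 with 4OHT. Vehicle minus untreated was 0.46 ± 0.10 (-0.81 on the spike-in scale and -0.64 unscaled), and 4OHT minus vehicle was -0.13 ± 0.10. The Rras2 call against untreated was lost for vehicle without vehicle replicate 2, and for 4OHT without untreated replicate 2 or 4OHT replicate 2 or 3. Normexp background correction lowered these values, to 0.60 for Rras and 0.27 for Rras2 with vehicle, and to 0.18 for Rras2 with 4OHT, which was not called.

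The Rap genes encode GTPases of cell adhesion, with Rap1 acting on integrins and cadherin junctions, and they did not share a pattern. Rap1b read 4.23, 4.10 and 4.17 untreated, 4.17 and 4.27 with vehicle, and 4.08, 4.19 and 4.12 with 4OHT. These groups overlapped throughout, with differences of 0.06 ± 0.09 and -0.09 ± 0.09. Quantile normalization put vehicle below untreated (-0.39, called), and the spike-in scale put Rap1b at 42.9% of untreated with vehicle and 32.6% with 4OHT. Rap2b read -1.23, -1.39 and -1.33 untreated, -1.71 on both vehicle arrays, and -2.13, -2.35 and -2.12 with 4OHT. It stepped down in the same order as Rit1 with smaller differences, -0.39 ± 0.11 for vehicle minus untreated and -0.49 ± 0.11 for 4OHT minus vehicle, and 18.1% of the untreated spike-in-scaled signal was left with 4OHT. The call of Rap2b for vehicle against untreated was lost without untreated replicate 1 or 3 or either vehicle array, and normexp background correction gave -0.022, with -0.31 for 4OHT against untreated.

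Rap1a gave dim values, with 1 array far above the others. It read -4.32, -4.22 and -4.82 untreated, -3.97 and -4.26 with vehicle, and -3.40, -3.26 and -1.07 with 4OHT. The processed signal on 4OHT replicate 3 was 86.7 intensity units, against 19.8 and 18.8 on the other 4OHT arrays. With that array the difference between 4OHT and vehicle was 1.53 ± 0.67, which was not called, and without it the difference was 0.78. For 4OHT against untreated the value was 1.88 ± 0.60 with the array and 1.12 without it, and this comparison was called both times. The call was lost without any 1 of the untreated arrays or without vehicle replicate 2.

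Counted together, vehicle against untreated called 4 of 9 members higher (Hras, Nras, Rras and Rras2) and 2 lower (Rit1 and Rap2b) at an adjusted p under 0.05 in limma. Over all 28493 features, 41.5% were called higher and 15.9% lower. The members' median difference was 0.34, beside 0.40 over all features. Spike-in scaling turned the medians to -0.93 and -0.88, and 9 of 9 members then lay under untreated. On that scale 18483 of the 28493 features were called lower and 32 higher, so this count does not set the members apart. The members were thus spread around the value of a typical feature, with Rit1 and Rap2b at the low end.

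For 4OHT against vehicle, 1 of 9 members was called higher (Mras) and 1 lower (Rit1), where 0.923% of all features were called higher and 2.58% lower. Since the list was drawn up with this comparison known, nothing is read from those counts. The members' median was -0.09, and -0.05 over all features. The spike-in scale gave -0.40 and -0.36, with 7 of 9 members below vehicle, where the median feature also lay. Mras stood 1036th from the highest difference and Rap1a, with its outlying array, 78th.

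For 4OHT against untreated, 6 of 9 members were called higher (Hras, Nras, Mras, Rras, Rras2 and Rap1a) and 2 lower (Rit1 and Rap2b). The shares over all features were 41.0% higher and 18.7% lower. This comparison shares its arrays with the other two, so its values stand beside them and not in support of them. Differences were 0.56 for Hras, 0.65 for Nras, 0.73 for Rras and 0.33 for Rras2, but -1.02, -0.94, -0.85 and -1.25 on the spike-in scale and -0.50, -0.41, -0.32 and -0.73 unscaled. Mras too was under untreated without scaling (-0.31), and with quantile normalization it differed by 0.25 and was not called. Rit1 differed by -2.41 ± 0.10 and Rap2b by -0.88 ± 0.10, and both were lower on the spike-in scale too (-3.99 and -2.47). There 8 of 9 members lay under untreated, the exception being Rap1a at 0.29. On that scale 26629 features were called lower and 29 higher, so this count does not set the members apart.

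**Figure D3:**
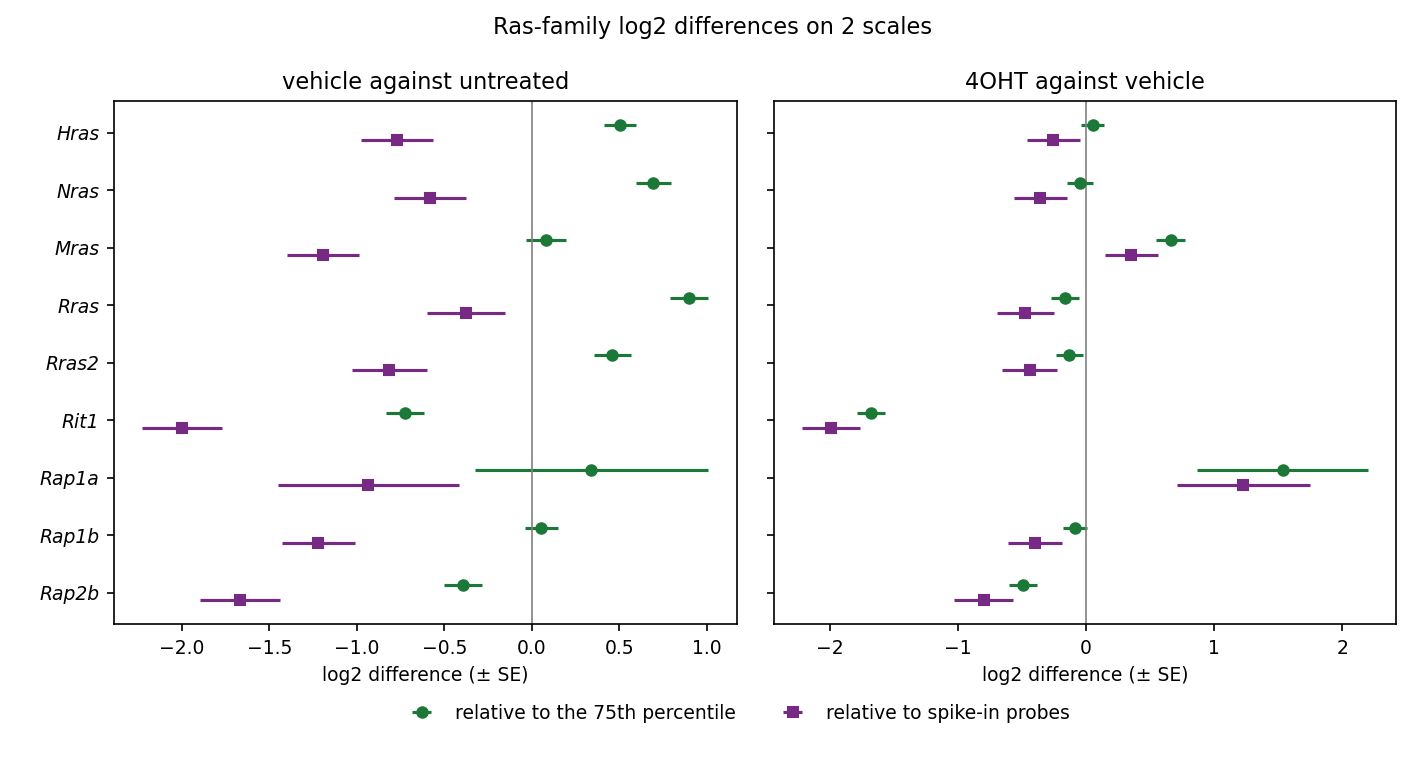
Log2 differences of the 9 Ras-family genes with standard errors for vehicle minus untreated and 4OHT minus vehicle, relative to the 75th percentile (circles) and to spike-in probes (squares). Against untreated, all spike-in values lie below 0, and in 4OHT minus vehicle Rit1 lies at -1.68 and -1.99 while Mras lies above 0 on both scales.

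The regulators and effectors around these GTPases were read from 6 lists of 107 genes, of which 97 were tested. In vehicle against untreated 33 were called higher and 23 lower, beside 41.5% and 15.9% of all features, with a median of 0.11, or -1.16 on the spike-in scale. Among 21 other Ras subfamily GTPases, 3 were higher and 5 lower (median -0.04). Rala, which links Ras to vesicle tethering, was higher by 0.76 ± 0.15 (adjusted p = 0.0044), but lower when scaled to spike-in probes (-0.51) or unscaled (-0.33). With quantile normalization Rala differed by 0.34 and was not called. Rasl11b, an atypical Ras-like GTPase, fell by 4.01 ± 0.49 (adjusted p = 0.00056), and with normexp background correction it differed by -1.83. Eras, the constitutively active Ras of embryonic stem cells, averaged 2.35 ± 0.29 (SD) on the 3 untreated, 1.91 ± 0.15 (SD) on the 2 vehicle and 1.55 ± 0.06 (SD) on the 3 4OHT arrays. Its vehicle difference did not pass (-0.44 ± 0.17, adjusted p = 0.063), although it was called in 7 of 21 settings, and 4OHT against untreated did (-0.80 ± 0.15, adjusted p = 0.0036).

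Exchange factors and adaptors split, with 8 of 19 higher and 7 lower in vehicle against untreated (median -0.19), beside 41.5% and 15.9% of all features. Rasgrf2, an exchange factor for Ras and Rac, was higher by 0.97 ± 0.08 (adjusted p = 0.00021), but lower when scaled to spike-in probes (-0.31) or unscaled (-0.13). Rasgrp1, an exchange factor recruited by diacylglycerol, fell by 1.57 ± 0.24 (adjusted p = 0.0015), but with normexp background correction it differed by -0.16 and was not called. GTPase activating proteins were 4 higher and 4 lower of 16 (median 0.10). Nf1, the neurofibromin that switches Ras off, was higher by 0.70 ± 0.11 (adjusted p = 0.0017), but lower when scaled to spike-in probes (-0.57) or unscaled (-0.39). Dab2ip, another Ras GTPase activating protein, fell by 1.34 ± 0.09 (adjusted p = 7.4e-05) on its representing probe, while its other probe gave 0.77 ± 0.30 and the mean of its probes (-0.29) was not called.

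Enzymes and carriers that process the Ras lipid anchors were 9 higher and 2 lower of 15, beside 41.5% and 15.9% of all features. Their median was 0.58, and -0.70 on the spike-in scale. Abhd17a, which removes palmitate from Nras protein, was higher by 1.05 ± 0.13 (adjusted p = 0.0006), but lower when scaled to spike-in probes (-0.23) or unscaled (-0.047). Its relative Abhd17b fell by 1.08 ± 0.15 (adjusted p = 0.00086). Zdhhc9 and Golga7 encode the catalytic and accessory subunits of the enzyme that palmitoylates Hras and Nras. Zdhhc9 fell by 1.37 ± 0.33 (adjusted p = 0.011), with -0.76 without vehicle replicate 1 and -1.98 without vehicle replicate 2. Golga7 was higher by 0.83 ± 0.09 (adjusted p = 0.00041), but lower when scaled to spike-in probes (-0.44) or unscaled (-0.27), and at 0.28 with quantile normalization.

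Effector genes were 4 higher and 4 lower of 19 (median -0.05), beside 41.5% and 15.9% of all features. Ralgds, which passes the Ras signal to Ral GTPases, fell by 2.48 ± 0.12 (adjusted p = 2.7e-05), or differed by -1.56 with normexp background correction. Pik3cb, a catalytic PI3-kinase subunit, fell by 2.06 ± 0.13 (adjusted p = 6.2e-05). Afdn, a junctional protein that binds Ras and Rap1, was higher by 0.91 ± 0.15 (adjusted p = 0.0022), but lower when scaled to spike-in probes (-0.37) or unscaled (-0.19). Of 7 genes for partners of the Mras and Rit1 proteins, 5 were higher and 1 lower (median 0.67; -0.61 on the spike-in scale). The scaffold Shoc2 fell by 1.14 ± 0.12 (adjusted p = 0.00034), while the phosphatase subunits Ppp1ca (1.07 ± 0.11, adjusted p = 0.00031; -0.21 spike-in-scaled and -0.028 unscaled) and Ppp1cb (0.94 ± 0.11, adjusted p = 0.0005; -0.34 and -0.16) were higher. With quantile normalization Ppp1ca differed by 0.12, which was not called, and Ppp1cb by 0.40. In 4OHT against vehicle these 7 genes differed by -0.28 to 0.05.

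In 4OHT against vehicle 2 of the 97 pathway genes were called higher and 2 lower, beside 0.923% and 2.58% of all features, with a median of 0.034 over the 97. All 4 calls were lost for unscaled values and with the replicate block. Abhd17b averaged 2.42 ± 0.11 (SD) on the 3 untreated, 1.34 ± 0.25 (SD) on the 2 vehicle and -0.06 ± 0.13 (SD) on the 3 4OHT arrays. It fell by 1.40 ± 0.15 from vehicle to 4OHT (adjusted p = 0.0092), and its call held without each array in turn. Unscaled it differed by -1.36 (adjusted p = 0.052) and with the replicate block by -1.34 (adjusted p = 0.063). Dab2ip fell by 0.83 ± 0.09 (adjusted p = 0.0092), but its other probe differed by 0.44 and the mean of its probes (-0.20) was not called. Pik3cb was higher by 0.95 ± 0.13 (adjusted p = 0.017), from -0.67 ± 0.14 (SD, n = 2) with vehicle to 0.28 ± 0.11 (SD, n = 3) with 4OHT, still under its untreated 1.39 ± 0.13 (SD, n = 3). Sipa1l2, a Rap GTPase activating protein, was higher by 0.89 ± 0.15 (adjusted p = 0.029) and stood at 3.43 ± 0.14 (SD, n = 3), beside 3.44 ± 0.17 (SD, n = 3) untreated. On the spike-in scale Sipa1l2 differed by -2.17 from untreated to vehicle and by 0.58 from vehicle to 4OHT, so there it stayed under untreated. Neither that 0.58 nor the spike-in-scaled 0.64 of Pik3cb was called. Both calls were also lost with median scaling, without the filter on dim probes and in the fit of the 2 groups. The Pik3cb call was lost without either vehicle array or 4OHT replicate 2. The Sipa1l2 call was kept only without untreated replicate 2 or 4OHT replicate 1.

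In 4OHT against untreated, 38 pathway genes were called higher and 26 lower, beside 41.0% and 18.7% of all features. Abhd17b fell by 2.48 ± 0.13 (adjusted p = 1.8e-05). Dab2ip fell by 2.17 ± 0.08 (adjusted p = 3.9e-06), although its second probe gave 1.21. Rasl11b fell by 3.92 ± 0.44 (adjusted p = 0.00031), and differed by -1.94 with normexp background correction. Shoc2 fell by 1.26 ± 0.10 (adjusted p = 0.00011).

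**Figure D4:**
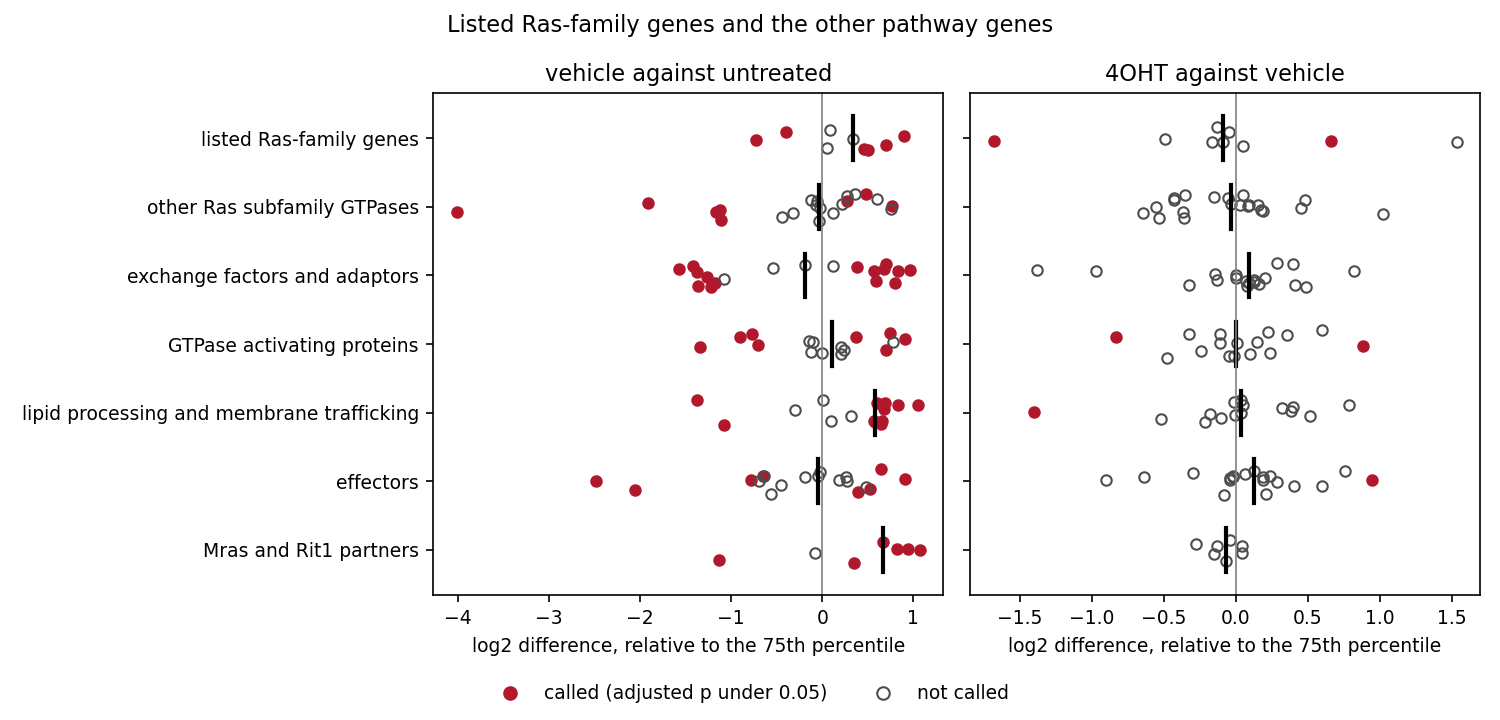
Log2 differences relative to the 75th percentile for the listed Ras-family genes and the tested genes of 6 pathway lists, for vehicle minus untreated and 4OHT minus vehicle; each point is a gene, filled where called at an adjusted p under 0.05, and black bars are list medians. In 4OHT minus vehicle most genes lie near 0 and 4 of 97 pathway genes are filled.

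The genes whose profiles lay nearest to Mras and Rit1 were taken by Euclidean distance of log2 values centred over the 8 arrays, among 13187 symbols well above background on all of them. The Mras profile was that of its representing probe alone, and the differences given for these genes follow from how they were picked. Nearest to Mras were Myot, which encodes a sarcomere protein (distance 0.149), Papss1, a sulfate donor synthase (0.223), Scn3b, a sodium channel subunit (0.238), Rom1, a photoreceptor membrane protein (0.247), and Dll3, a Notch ligand (0.286). These 5 stood 0.57 to 0.62 higher with 4OHT than with vehicle, and 0.15 to 0.20 higher with vehicle than untreated. Among the nearest to Rit1 were Ppp1r8, an inhibitor of nuclear protein phosphatase 1 (0.379), Cxxc5 (0.477), Slbp, which binds histone mRNA stem-loops (0.489), and Tmem121 (0.509). Slbp differed by -0.50 from untreated to vehicle and -1.74 from vehicle to 4OHT. Ppp1r8 stepped by -1.02 and -1.54.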

How the data were processed

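Per the labels' protocols, column-purified total RNA was amplified and labelled. Per the file headers, the authors deposited a linear spot intensity that Agilent Feature Extraction (11.0.1.1) had background-subtracted. It is the green channel, while the labels name Cy5. Spots of a probe were averaged, 466 probes with an outlier-marked spot that left an array without a value were dropped, and log2 signal minus each array's 75th percentile was used. A probe entered if all arrays of some group read it well above background (33013 did), and each symbol was represented by its probe with the highest mean. Symbols came from RefSeq accessions matched to the GRCm38.p6 gene table, for 27656 of 55681 probes. The 28493 features were fitted over all 8 arrays and 3 groups with limma 3.58.1 in R 4.3.3 (lmFit, eBayes; 5 residual degrees of freedom), with two-sided p-values after Benjamini-Hochberg adjustment called under 0.05.

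The members and lists were chosen with earlier results of these data known. The text names every member, up to 3 called genes per list and direction with the largest differences, Eras, the stem cell markers and the 5 nearest profiles of Mras and Rit1; not every gene this allows is printed, and 1 is not reported here. On simulated data for 4OHT against vehicle with 28493 features, 47 of 100 planted log2 differences of 1 and 77 of 100 of 2 were recovered. The number of arrays limits the precision. Replicate numbers were not taken as pairs of arrays. The spike-in scale subtracts the mean of 8 of 10 Agilent E1A control probes; the labels do not describe their addition. Other settings were normexp (offset 50), quantile, median and no scaling, the authors' value table, 2 other filters, the mean of a gene's probes, trended eBayes, a replicate block, fits of 2 groups and leaving out each array.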

Additional observations from a re-analysis of the deposited data

How the results depend on the processing

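The numbers given here as pairs are calls higher, then lower, where both moved by over 1.5 times; all settings were planned. With spike-in scaling, features called were 32 and 18483 (vehicle against untreated), 40 and 1196 (4OHT against vehicle) and 29 and 26629 (4OHT against untreated), against 11829 and 4539, 263 and 734, and 11692 and 5342. Members called were then 0 and 7, 0 higher, and 0 and 8, and pathway genes 0 and 82, 0 and 4, and 0 and 95. Unscaled, features were 35 and 13091, 17 and 75, and 95 and 15796, members 0 and 6, 0 higher, and 0 and 5, and pathway genes 0 and 62, 0 and 0, and 0 and 66. Scaled to the median, features were 7362 higher (vehicle against untreated) and 78 and 163 (4OHT against vehicle), members 1 and 0, then 0 higher, and pathway genes 12 higher, 0 and 1, and, for 4OHT against untreated, 17 lower. Quantile normalization gave 7455 features higher, 17 pathway genes higher and 4 members lower for vehicle against untreated, 471 features lower and 0 members higher for 4OHT against vehicle, and 25 pathway genes higher for 4OHT against untreated. Normexp gave 19420 and 20010 features higher against untreated, 1 member lower with vehicle, and 0 members and 4 pathway genes higher for 4OHT against vehicle.

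For 4OHT against vehicle, the unfiltered fit called 25 and 76 features, 0 members higher and 0 and 1 pathway genes (1 member lower for vehicle against untreated); the filter over all 8 arrays called 2 members lower; the mean of probes 0 members higher and 1 pathway gene lower; trended eBayes 414 features higher and 4 pathway genes lower; and the fit of the 2 groups 55 and 180 features, 0 members higher and 0 pathway genes higher. The replicate block called 8 and 12 features, 0 members higher and 0 and 0 pathway genes. With values centred within each group, same-numbered arrays correlated at -0.19 to 0.36 and differently numbered ones at -0.36 to 0.23. Same-numbered vehicle and 4OHT arrays gave 0.36 and 0.22, and untreated and vehicle arrays -0.027 and -0.19. The centred values of the 2 vehicle arrays mirror each other, so this check cannot settle pairing. The numbers were not taken as pairs. Without 1 array, 4OHT against vehicle called 52 to 199 features higher and 176 to 534 lower, 0 to 1 member higher and 0 to 2 pathway genes higher, and vehicle against untreated 1 to 2 members lower. Leaving out an array tests fewer samples; the cause of the other changes was not tested.

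Differences that turned negative, spike-in-scaled and then unscaled, were for vehicle against untreated Hras -0.77 and -0.59, Nras -0.58 and -0.40, Rras -0.38 and -0.20, Rras2 -0.81 and -0.64, Rala -0.51 and -0.33, Rasgrf2 -0.31 and -0.13, Nf1 -0.57 and -0.39, Abhd17a -0.23 and -0.047, Golga7 -0.44 and -0.27, Afdn -0.37 and -0.19, Rgl2 -0.63 and -0.45, Ppp1ca -0.21 and -0.028, and Ppp1cb -0.34 and -0.16. For 4OHT against untreated they were Hras -1.02 and -0.50, Nras -0.94 and -0.41, Mras -0.84 and -0.31, Rras -0.85 and -0.32, Rras2 -1.25 and -0.73, Nf1 -0.73 and -0.20, and, spike-in-scaled alone, Rasgrf2 -0.49, Abhd17a -0.49, Afdn -0.49 and Ppp1ca -0.47. For vehicle against untreated, members that were not called turned too, Mras to -1.19 and -1.02 and Rap1b to -1.22 and -1.04. Rap1a turned to -0.93 spike-in-scaled, and unscaled it was lower too, at 10.6 and 10.7 intensity units with vehicle and 16.6, 24.5 and 14.4 untreated. Slide as a block could not be fitted for 4OHT, since its arrays lie on a slide of their own. Dim probes such as Rap1a, and the 4 calls among pathway genes in 4OHT against vehicle, are limited by 2 to 3 arrays per group.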
